A study of Arabidopsis thaliana with 6 samples.

Results

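AT1G06620, AT1G03410 (*2A6*) and AT1G14120 encode enzymes of the 2-oxoglutarate and Fe(II)-dependent oxygenase superfamily that lie outside the JOX group of jasmonate oxygenases. The 3 genes were chosen by their difference between *ninja-1* and WT in these same arrays, so their values are given as a description with no test. They have 4 probe sets (a probe set is the group of short probes that reports 1 transcript), out of 22746 probe sets and 13286 named genes on the array. Transcript levels were measured in whole roots of 5-do (5-day-old) *Arabidopsis thaliana* seedlings on Affymetrix ATH1 arrays. Seedlings carrying the mutant allele *ninja-1* of *NINJA*, the adaptor through which JAZ repressors hold back jasmonate (JA) responses, were compared with WT seedlings of the Col-0 ecotype. Seedlings of both genotypes carried the *JAZ10pro-GUSPlus* (*JGP*) reporter, grew in aseptic conditions on a mesh and received no treatment. Each genotype had 3 biological replicates, and each replicate pooled 120 roots and went on 1 array. No other *ninja* allele was put on an array here.

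Enzymes of this superfamily use molecular oxygen and 2-oxoglutarate, with iron at the active site, to hydroxylate, oxidize or desaturate small molecules. Plants use them to make and to inactivate hormones and to build defence compounds. The JOX enzymes hydroxylate JA and so remove it, ACC oxidases make ethylene, DAO1 oxidizes the auxin indole-3-acetic acid, and other members act on gibberellins, flavonoids, coumarins and glucosinolates. AT1G06620 and *2A6* resemble the enzymes known as ACC oxidase homologs, whose sequences are close to ACC oxidase but which are not known to make ethylene. AT1G14120 is the tandem neighbour and closest relative of *DAO1* (AT1G14130), and is also known as *DAO2*. The substrates of AT1G06620 and *2A6* are left unnamed here.

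All values below are GCRMA levels on the log2 scale, where a step of 1 is a doubling of the hybridisation signal. They compare the same probe set between arrays and do not rank 1 gene's transcript against another's. The median over all probe sets of an array was 5.95 to 6.03. The lowest value on each array, called the floor here, was 2.11, and each array had 26.5% to 27% of its probe sets no more than 0.05 above it. Pearson's r over probe sets, which are not independent replicates, was 0.998 to 0.999 within a genotype and 0.994 to 0.996 between genotypes. The *NINJA* transcript itself was at 7.30, 7.05 and 7.13 in *ninja-1* replicates 1, 2 and 3, against 9.60, 9.52 and 9.72 in WT. Its difference of -2.45 (SE 0.09, from a linear model in limma fitted across all probe sets, as are the SEs below) follows the labels, but its probe set was named only by a match to the study's list of changed genes, so it is no independent check of them. Of the root and leaf marker genes looked up, 3 had a probe set with a single named gene. *EXPA7*, an expansin of root hairs, averaged 8.91 in *ninja-1* and 8.76 in WT (limma, adjusted p = 0.486 by Benjamini-Hochberg over all probe sets, as for each adjusted p below), and AT1G62500, a cortex marker, averaged 6.81 in *ninja-1* and 6.76 in WT (adjusted p = 1.00). *RCA*, the Rubisco activase of green tissue, had means of 10.3 in *ninja-1* and 10.2 in WT (adjusted p = 0.816). The roots were measured whole, so more transcript in a cell and more cells that carry it cannot be told apart.

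AT1G06620 had a WT mean 5.52 above the floor and was higher in *ninja-1*. Its level was 9.65, 9.98 and 9.94 in *ninja-1* replicates 1, 2 and 3, against 7.68, 7.72 and 7.49 in WT. Every *ninja-1* array lay above every WT array, and 1.93 log2 units separated the lowest *ninja-1* value from the highest WT value. The means were 9.86 ± 0.18 in *ninja-1* and 7.63 ± 0.12 in WT (SD, n = 3 each), a difference of 2.23 (SE 0.12) or 4.69-fold.

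AT1G14120 had the widest spread between replicates of the 4 probe sets and was higher in *ninja-1*. Its level was 9.29, 9.29 and 9.01 in *ninja-1* replicates 1, 2 and 3, against 6.22, 5.59 and 5.79 in WT. The groups did not overlap, with a gap of 2.78 log2 units between them. The means were 9.19 ± 0.16 in *ninja-1* and 5.87 ± 0.32 in WT (SD, n = 3 each), a difference of 3.33 (SE 0.20) or 10.03-fold. The WT replicates alone spanned 0.63 log2 units, and replicate 1 was the highest of them. Among the 2762 probe sets whose mean level over all 6 arrays lay within 0.5 of its own, 96.2% had a smaller SD within genotypes, and their median SD was 0.12. That mean lies between the levels of the 2 genotypes, where no array of this gene lay.

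*2A6* is the only gene of the 3 with more than 1 probe set, and the 2 probe sets that the annotation gives to it differed widely. On the dimmer one, 264826_at, the level was 6.57, 6.62 and 6.44 in *ninja-1* replicates 1, 2 and 3, against 2.74, 2.88 and 2.96 in WT. Here the groups were 3.48 log2 units apart at their nearest, and the means of 6.54 ± 0.09 in *ninja-1* and 2.86 ± 0.11 in WT (SD, n = 3 each) differed by 3.68 (SE 0.08) or 12.8-fold. The WT mean was only 0.76 above the floor of the arrays, so the fold rests on a very dim WT signal.

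On the brighter one, 264824_at, the level was 9.80, 9.82 and 9.85 in *ninja-1* replicates 1, 2 and 3, against 9.75, 9.54 and 9.68 in WT. The means were 9.82 ± 0.02 in *ninja-1* and 9.65 ± 0.11 in WT (SD, n = 3 each), a difference of 0.17 (SE 0.06) or 1.12-fold. The groups again did not overlap, but the gap between them was 0.05 log2 units, smaller than the pooled SD of 0.08. The WT mean of this probe set was 7.55 above the floor. In RefSeq the *2A6* gene overlaps a long noncoding RNA gene (AT1G04183) and a pseudogene (AT1G03420), and which of these sequences each probe set matches is not given in the sources used here. The 2 probe sets are therefore reported apart, and whether either of them reports *2A6* alone was not tested.

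**Figure D1:**
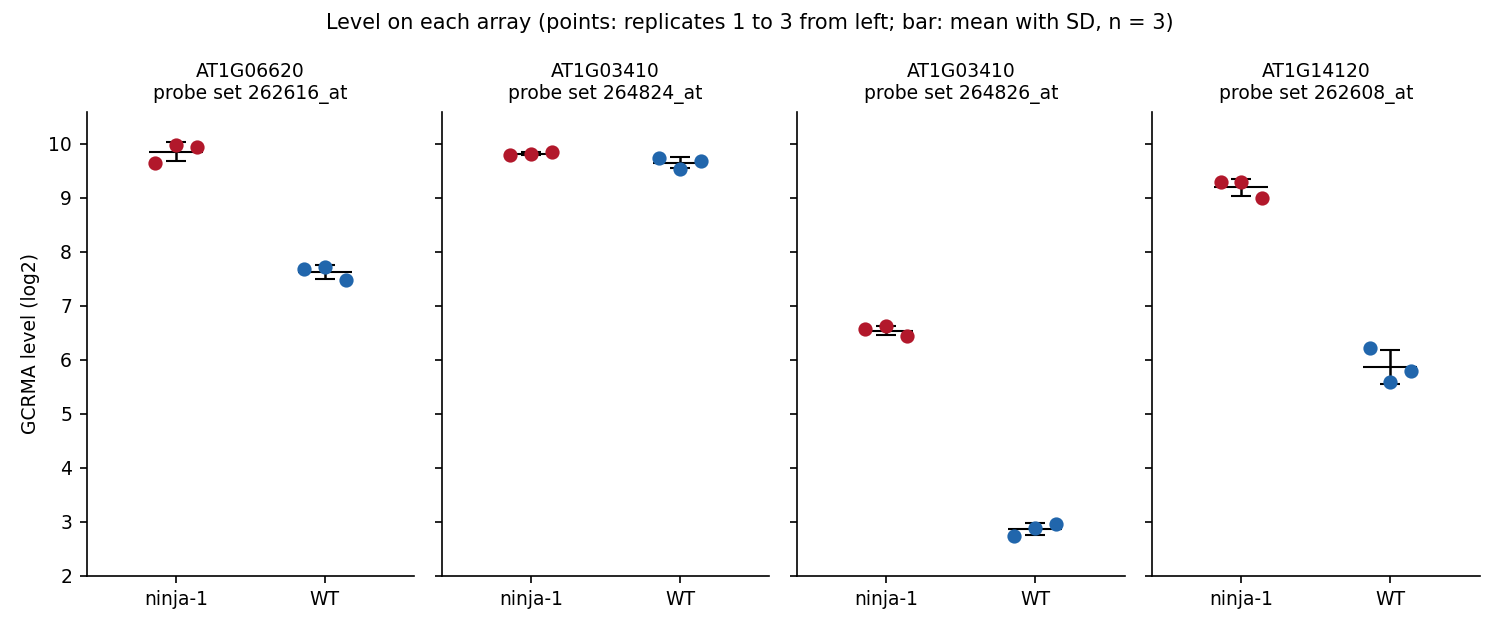
GCRMA level (log2, y axis) of the 4 probe sets on each array, *ninja-1* left (red) and WT right (blue), with points for replicates 1 to 3 from left to right and a bar for the mean with its SD (n = 3). The groups are 1.93, 3.48 and 2.78 log2 units apart for AT1G06620, 264826_at of AT1G03410 and AT1G14120, and 0.05 apart for 264824_at.

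Ranked by the log2 difference over all 22746 probe sets, the highest first, 264826_at of *2A6* was number 11, AT1G14120 number 14, AT1G06620 number 38 and 264824_at of *2A6* number 2221. As background for these ranks, limma gave an adjusted p under 0.05 together with a difference of 2-fold or more to 0.492% of all probe sets as higher in *ninja-1* and to 0.0484% as lower. On 7.75% of all probe sets every *ninja-1* array lay above every WT array, and on 10.1% every *ninja-1* array lay below. Since the genes were chosen on this contrast, nothing is read from where they stand in it. The spread within genotypes differed among the 4, and the choice of the genes may have depended on it as well. The pooled SD of AT1G06620 was 0.16, larger than that of 81.1% of probe sets of similar mean level, whereas those of 264826_at and 264824_at were larger than 27.6% and 31.4% of theirs. The level matched on was the mean over all 6 arrays. For AT1G06620 and 264826_at, as for AT1G14120, it lies between the levels of the 2 genotypes, where none of their arrays lay. Their shares therefore do not say how the spread compares at either genotype's own level.

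**Figure D2:**
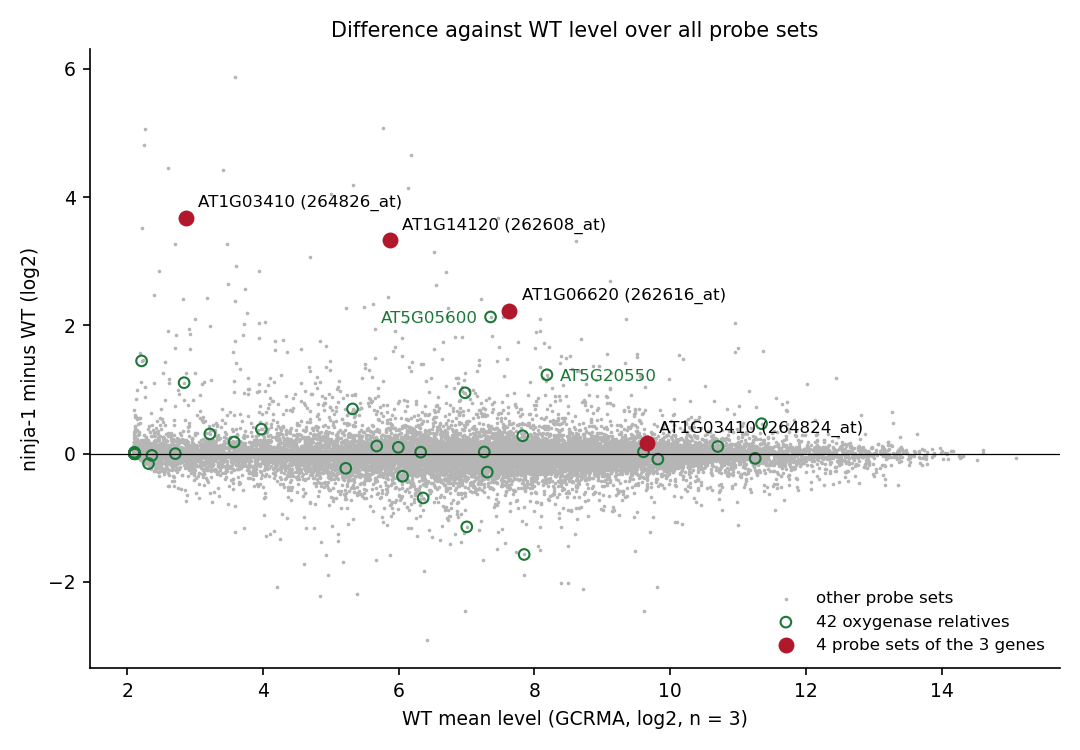
Difference between *ninja-1* and WT (log2, y axis) against the WT mean level (log2, x axis) for each probe set, with the 4 probe sets of the 3 genes in red, 42 oxygenase relatives as green rings and the rest in grey. The 3 high red points lie at differences of 3.68, 3.33 and 2.23, and 264824_at of AT1G03410 lies within the grey band at 0.17.

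The replicates of a genotype did not fall in the same order on the 4 probe sets. Replicate 1 was the lowest *ninja-1* array for AT1G06620 and for 264824_at of *2A6*, and replicate 3 was the lowest for 264826_at and AT1G14120. Among WT arrays, replicate 1 was the highest for AT1G14120 and 264824_at and the lowest for 264826_at.

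The pattern over the 6 arrays was compared between genes as the root mean square distance of their values after each was centred on its own mean, over 13432 other probe sets with a single named gene. Among the 3 genes, 264826_at of *2A6* and AT1G14120 were the closest pair, at a distance of 0.30, and AT1G06620 lay 0.61 from AT1G14120 and 0.75 from 264826_at. The 2 probe sets of *2A6* were the farthest pair, at 1.76. The nearest probe set of all to 264826_at was that of AT2G43530, at 0.22, and the same probe set was also the nearest to AT1G14120, at 0.24. AT2G43530, which encodes a small defensin-like protein, was at 6.07, 6.14 and 5.73 in *ninja-1* replicates 1, 2 and 3, against 2.62, 2.79 and 2.71 in WT. Next came AT5G23840, which encodes a lipid recognition protein, at 0.24 from 264826_at, with means of 11.1 in *ninja-1* and 7.46 in WT. For AT1G14120 it was *JAL22*, a jacalin-related lectin, at 0.35, with means of 11.8 in *ninja-1* and 9.11 in WT. AT1G06620 was nearest to AT2G18210, at 0.15, with means of 7.96 in *ninja-1* and 5.62 in WT, and then to AT2G34930, a leucine-rich repeat protein gene, at 0.16, with means of 5.21 in *ninja-1* and 3.22 in WT. The neighbours of 264824_at in this sense were AT5G64090 and AT2G21230 (*bZIP30*), at 0.03 each, and both differed by about as little as it did, by 0.13 and 0.12. With 6 arrays in 2 groups, probe sets with a genotype difference of like size come out near each other by this measure.

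Among the other measured oxygenases on the lists used here, 2 differed between the genotypes beyond the threshold. Of 72 genes on 8 lists of relatives, 42 had a probe set with a single named gene. Of these 42, 2 were higher in *ninja-1* with an adjusted p under 0.05 (4.76%, against 0.805% of all probe sets) and 0 were lower (against 0.374% of all probe sets). The lists were drawn up with earlier results of these data known. The shares here and the p-values of single relatives below are therefore a description, and no enrichment is read from them. At an unadjusted p under 0.05 in limma, 8 of the 42 were higher, a larger share than the 5.73% of all probe sets. At the same threshold 3 of the 42 were lower, a share near the 7.23% of all probe sets. The groups did not overlap on 9 of the 42 with *ninja-1* above WT, a larger share than the 7.75% of all probe sets. On 4 of the 42 *ninja-1* lay below WT without overlap, a share near the 10.1% of all probe sets. On all 6 arrays 13 of the 42 stayed at the floor, where only a large increase could be seen. The median difference was 0 over the 42, 0.03 over the 29 above the floor on at least 1 array and 0 over all probe sets tested. The 12 gibberellin oxidases and the 4 salicylate and strigolactone oxygenases on the lists had no probe set with a single named gene here. The annotation used leaves 8807 probe sets without a gene, so the array may still measure them.

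The JOX group held the relative with the largest difference. *JOX2* (AT5G05600) was at 9.52, 9.53 and 9.40 in *ninja-1* replicates 1, 2 and 3, against 7.17, 7.44 and 7.45 in WT. It rose by 2.13 (SE 0.09) or 4.38-fold in *ninja-1* (limma, adjusted p = 0.00636), with every *ninja-1* array above every WT array. With *ninja-1* replicate 1 left out the adjusted p was 0.0529, and with replicate 2 left out instead it was 0.0536. *JRG21* (AT3G55970, also *JOX3*) was at 3.12, 3.73 and 4.12 in *ninja-1*, against 2.21, 2.22 and 2.20 in WT, and its difference of 1.44 (SE 0.28) did not pass (adjusted p = 0.132, and 0.0424 to 0.338 over 11 other settings). *JOX4* (AT2G38240) was at 3.29, 4.13 and 4.41 in *ninja-1*, against 2.81, 2.90 and 2.81 in WT (difference 1.10, SE 0.32, adjusted p = 0.273). For both genes the groups were apart, yet the *ninja-1* replicates spread over about 1 log2 unit above a WT level near the floor. *JOX1* (AT3G11180) was at the floor on all 6 arrays.

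Among the ACC oxidase homologs, the list to which AT1G06620 and *2A6* belong, 0 of 13 measured genes passed the adjusted p in either direction, and their differences ran between -0.69 and 0.70. AT1G06640, which lies close to AT1G06620 on chromosome 1, was the nearest to passing. It was at 11.87, 11.85 and 11.72 in *ninja-1* replicates 1, 2 and 3, against 11.42, 11.31 and 11.31 in WT, a difference of 0.47 (SE 0.06, adjusted p = 0.0574). The groups did not overlap, and with 12 other settings of the test its adjusted p ran between 0.011 and 0.207 and was under 0.05 in 3 of them. AT2G30840 was the only other gene of this list with all *ninja-1* arrays above WT, with means of 8.10 in *ninja-1* and 7.83 in WT (adjusted p = 0.425).

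The other homologs showed overlapping groups. AT3G61400 had the highest difference of the list, 0.70 (SE 0.40, adjusted p = 0.595), with replicates 1 and 2 of *ninja-1* at 6.36 and 6.42 and replicate 3 at 5.26, against 5.70, 5.15 and 5.11 in WT. AT5G43450 had the lowest, -0.69 (SE 0.31, adjusted p = 0.47), and AT5G59530 followed at -0.29 (adjusted p = 0.457). AT1G04350 differed by -0.23 (adjusted p = 0.808) and AT5G43440 by -0.16 (adjusted p = 0.749). AT2G25450, known as *GSL-OH* for the step it performs on the side chain of aliphatic glucosinolates, had means of 10.8 in *ninja-1* and 10.7 in WT (adjusted p = 0.596). AT5G59540 differed by 0.03 (adjusted p = 0.983) and AT1G06650 by 0.02 (adjusted p = 1.00). AT1G03400, the neighbour of *2A6*, stayed at 2.71 on all 6 arrays, and AT1G04380 and AT2G30830 stayed at the floor.

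AT1G14120 sits beside *DAO1* (AT1G14130), whose enzyme oxidizes auxin. *DAO1* was at 8.13, 7.83 and 7.81 in *ninja-1* replicates 1, 2 and 3, against 6.86, 7.06 and 7.01 in WT. The groups did not overlap, and the difference was 0.95 (SE 0.11) or 1.93-fold, with an adjusted p of 0.0548 in limma that just missed the threshold. Over 12 other settings the difference ran between 0.85 and 1.00 and the adjusted p between 0.0028 and 0.251, passing in 3. The difference for AT1G14120 was 3.33, and the difference between the 2 genes was not tested, since AT1G14120 was chosen on this contrast. Whether transcripts of the pair are told apart by their probe sets is not given in the sources used here.

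The list of genes related to DAO and to the AOP enzymes, which modify glucosinolate side chains, had 0 of 12 measured genes past the adjusted p, *DAO1* included, and 6 of the 12 measured stayed at the floor (AT1G28030, AT1G52790, AT1G52800, AT1G52810, AT1G52820 and AT3G46480). *AOP1* averaged 3.76 in *ninja-1* and 3.58 in WT, with all *ninja-1* arrays above WT (adjusted p = 0.187). AT3G46500 averaged 4.36 in *ninja-1* and 3.98 in WT, also without overlap (adjusted p = 0.323), and its neighbour AT3G46490 differed by 0.31 (adjusted p = 0.687). *AOP3* was at the floor on 5 arrays and differed by 0.02 (adjusted p = 0.771). AT1G80320 lay just above the floor, with means of 2.33 in *ninja-1* and 2.36 in WT and all *ninja-1* arrays narrowly below WT (adjusted p = 0.501).

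Outside these lists 1 further relative passed. AT5G20550, an oxygenase of the SRG1-like list whose substrate is left unnamed here, was at 9.56, 9.33 and 9.35 in *ninja-1* replicates 1, 2 and 3, against 8.15, 8.21 and 8.19 in WT. It rose by 1.23 (SE 0.07) or 2.34-fold in *ninja-1* (adjusted p = 0.0101), with no overlap. That call was lost, with an adjusted p of 0.0544 to 0.0716, when *ninja-1* replicate 2 or any 1 of the WT replicates was left out. The other 8 measured genes of that list did not pass, and 4 of them stayed at the floor.

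None of the 3 measured coumarin oxygenases, nor the 1 measured ACC oxidase, passed. AT3G12900 and AT1G12010 had the lowest differences of the 42 relatives. AT3G12900, known as *S8H*, whose enzyme hydroxylates the coumarin scopoletin, was at 6.22, 6.47 and 6.13 in *ninja-1* replicates 1, 2 and 3, against 8.40, 7.73 and 7.42 in WT. All *ninja-1* arrays lay below WT and the difference was -1.57 (SE 0.29, adjusted p = 0.126). *F6'H2* (AT1G55290) averaged 5.70 in *ninja-1* and 6.06 in WT, again with all *ninja-1* arrays below (adjusted p = 0.237). *F6'H1* (AT3G13610), the main enzyme of scopoletin synthesis in roots, averaged 11.2 in *ninja-1* and 11.3 in WT, with overlapping groups (adjusted p = 1.00). AT1G12010, an ACC oxidase, was at 5.81, 5.36 and 6.42 in *ninja-1*, against 7.02, 6.98 and 7.01 in WT, a difference of -1.14 (SE 0.29, adjusted p = 0.222). The call for AT3G12900 and AT1G12010 turned on the setting: with dim probe sets left out their adjusted p was 0.00954 and 0.0314, within ranges over 12 settings of 0.00954 to 0.305 and 0.0314 to 0.455.

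**Figure D3:**
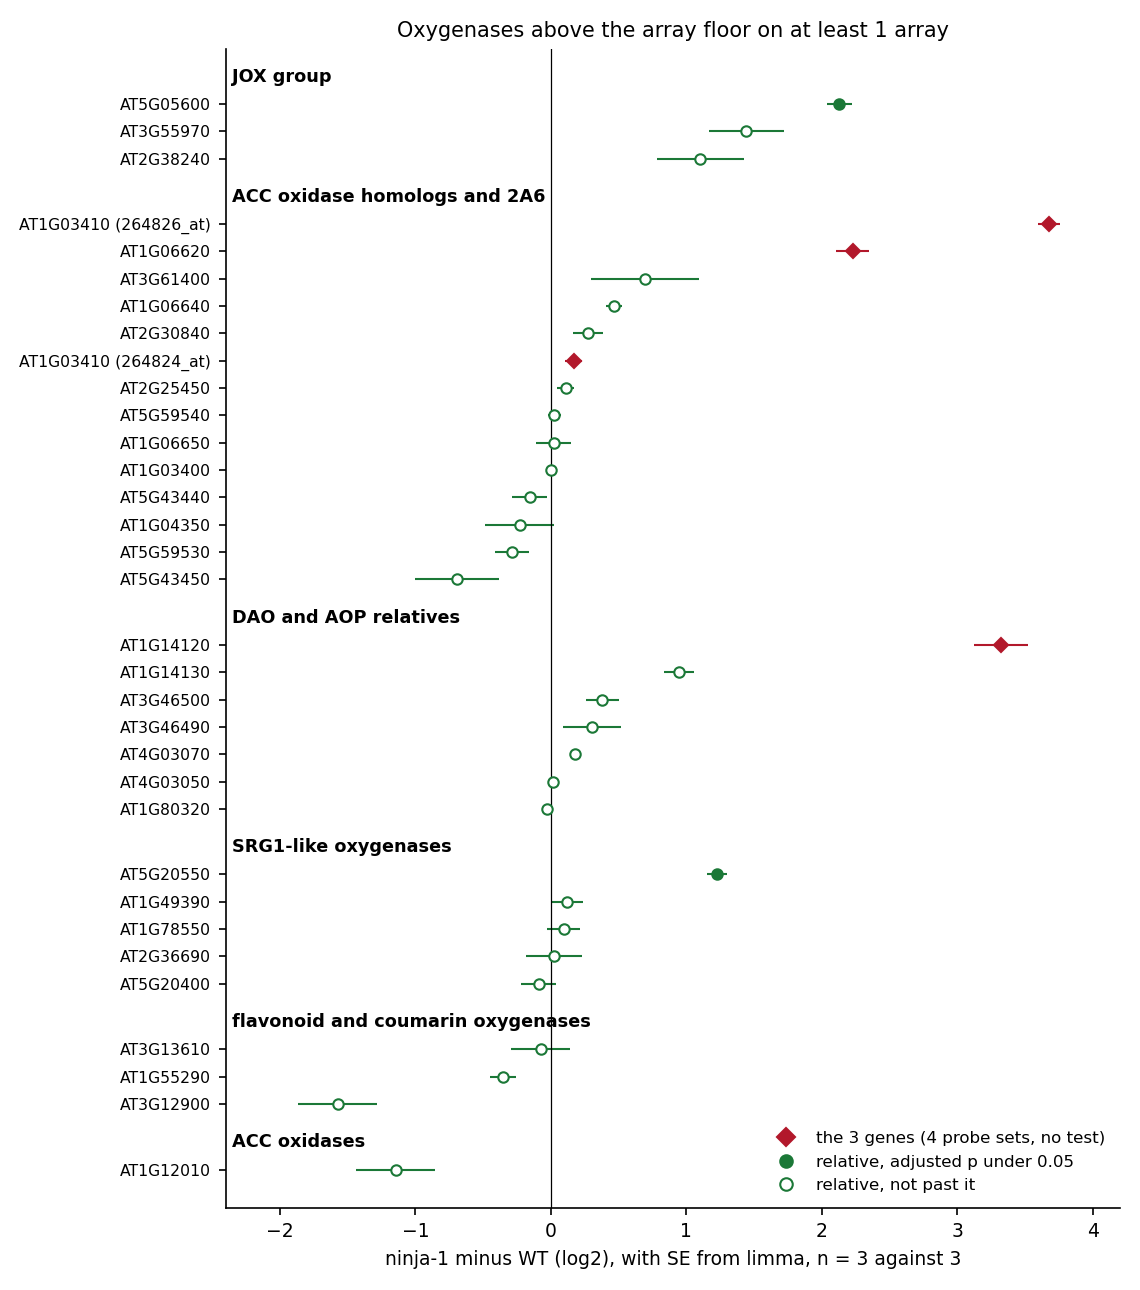
Difference between *ninja-1* and WT (log2, x axis) with its SE from limma for the measured oxygenases above the floor on at least 1 array, grouped by list, with the 3 genes as red diamonds and the relatives as circles, filled where the adjusted p is under 0.05. Only AT5G05600 and AT5G20550 are filled, and AT1G14130 and AT1G06640 are the open circles nearest to the threshold.

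All 3 genes lie on chromosome 1, each near at least 1 related gene, so the genes up to 2 places away were read as well. In the RefSeq order AT1G06620 is followed by AT1G06630 and then by its relative AT1G06640. AT1G06630, which is on none of the oxygenase lists, was at 6.20, 6.76 and 6.63 in *ninja-1* replicates 1, 2 and 3, against 6.70, 6.77 and 6.88 in WT, a difference of -0.26 (SE 0.17, adjusted p = 0.659). Next to *2A6*, AT1G03400 was flat at 2.71, and next to AT1G14120, *DAO1* was the neighbour with the difference of 0.95 given above. The other places hold genes to which the annotation used here gives no probe set of their own.

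**Figure D4:**
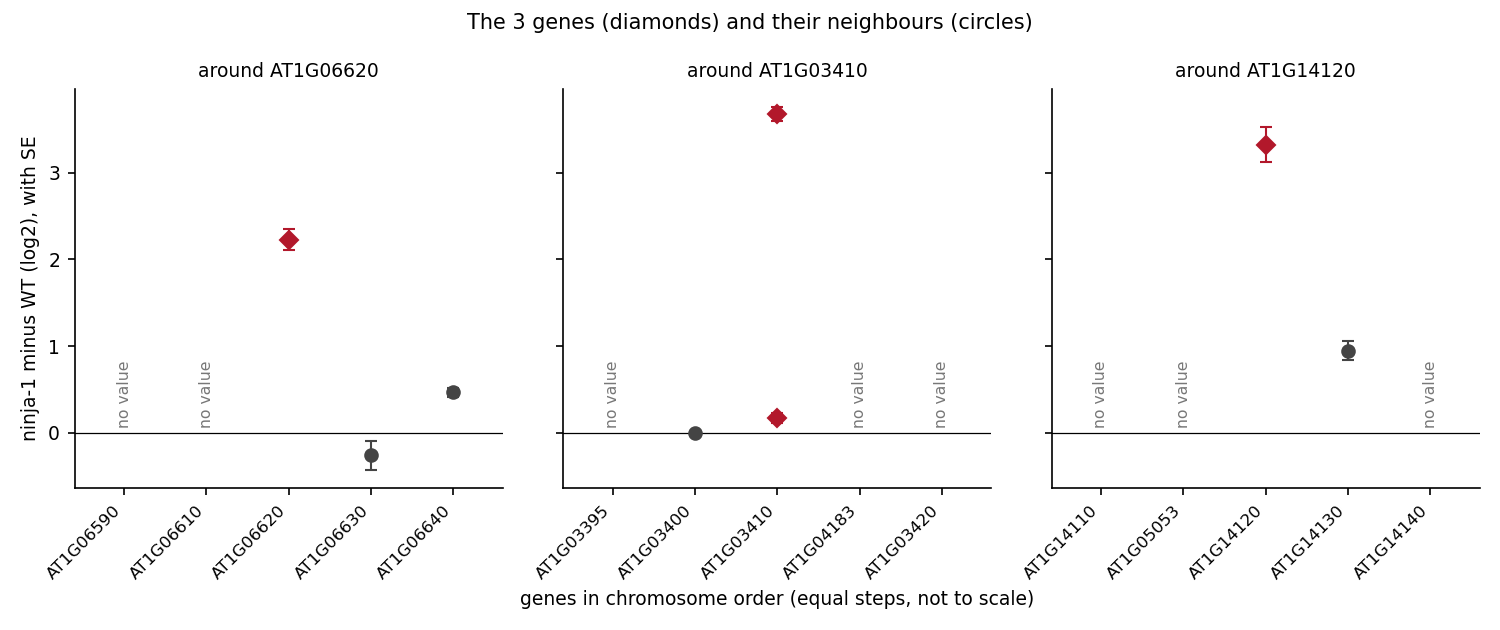
Difference between *ninja-1* and WT (log2, y axis) with its SE for the 3 genes (red diamonds) and the genes up to 2 places away in chromosome order (dark circles), in equal steps along the x axis and not to scale, with genes that have no value marked. Among the 4 measured neighbours the differences are 0.95 for AT1G14130, 0.47 for AT1G06640, -0.26 for AT1G06630 and near 0 for AT1G03400.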

How the data were processed

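Total RNA from 5-do roots was hybridised to ATH1 arrays, 3 *ninja-1* and 3 WT. The deposited values are log2 values that the authors made with GCRMA, which corrects background by probe sequence, gives the arrays a common distribution and combines the probes of each set. Its version is not given in the sources used here. Genotypes came from the sample labels. Leaving out 64 control probe sets, 22746 were fitted unfiltered in limma 3.58.1 under R 4.3.3 (lmFit and eBayes with genotype as the term, two-sided tests, Benjamini-Hochberg over all of them). The 3 genes, the relatives and the other lists were chosen with earlier results of these data known. Gene names came from the annotation of the array and RefSeq's gene table (TAIR10.1), which give 13436 of them a single gene, 503 several and 8807 none here. *NINJA* was named by the only probe set whose fold (within 0.06 plus 0.5%) and adjusted p (within 6e-04) match the study's list. That list's own fold changes and p-values were used for nothing else. Relatives were to be found by protein similarity, but no protein sequences were used here, so fixed lists of oxygenases stand in for them. Named in the text are the probe sets of the 3 genes, the 2 nearest to each by pattern, *NINJA*, relatives past the adjusted p, all measured genes of the JOX, ACC oxidase homolog and DAO and AOP lists and genes up to 2 places away. The coumarin genes and AT1G12010 were added after their values were seen. The fit was also run on simulated data with known changes, and nothing is read from that run here. Alternatives were quantile normalization, median centring, other priors, removal of dim probe sets, 1 probe set per gene, a replicate block and leaving out each array. The number of arrays limits the precision.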

Additional observations from a re-analysis of the deposited data

How the results depend on the processing

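The differences of the 4 probe sets of the 3 genes under 10 alternatives each are given as ranges. The ranges were 2.16 to 2.33 for AT1G06620, 3.19 to 3.50 for AT1G14120, and 3.62 to 3.73 and 0.11 to 0.21 for 264826_at and 264824_at of *2A6*. All lay within 1 pooled SD of the reported difference. The replicate block cannot change a difference between groups of equal size. Leaving out 1 of 3 arrays cannot move it by a pooled SD, so nothing is read from this. Which relatives passed depended more on the setting. As reported 2 were higher and 0 lower, and the trend and robust prior and 1 probe set per gene gave the same genes. With probe sets kept only where at least 3 arrays reached 4, the counts were 4 higher and 2 lower of 21 measured. After median centring they were 5 higher and 1 lower, and after quantile normalization 4 higher and 0 lower. *DAO1* (AT1G14130) and AT1G06640 passed as higher under these 3 settings, *JRG21* after median centring, AT3G12900 as lower under the first 2 and AT1G12010 as lower with the filter. Leaving out 1 array gave 0 to 2 higher and 0 to 1 lower, the 1 lower being AT1G80320 without WT replicate 2, and *JOX2* and AT5G20550 both missed without *ninja-1* replicate 2. Over all probe sets past the adjusted p and 2-fold, 112 higher and 11 lower, the filter gave 170 and 58, median centring 170 and 40, and leaving out 1 array 33 to 83 higher and 3 to 12 lower. Of 318 alternative values for 27 single relatives, 10 came under the threshold where the reported value had not. Only *JOX2* and AT5G20550 passed as reported, so only they could lose the call. They lost it 8 times, *JOX2* in 3 of its 12 settings and AT5G20550 in 5 of 12, and both kept their sign in all 12. Some relatives that did not pass changed sign, and AT1G06650 kept its own in 8 of 12. The cause of these changes was not tested.

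The labels number the replicates alike in both genotypes without saying that a number marks a shared batch. Same-numbered arrays deviated together with r of 0.09, 0.05 and 0.15, against -0.21 to 0.15 for arrays with unlike numbers. The numbers were not taken as pairs, and whether a number marks a shared batch was not tested. With the replicate block 0 relatives passed in either direction, *JOX2* at an adjusted p of 0.118 and AT5G20550 at 0.147, and 0 of all probe sets passed with a 2-fold difference. The stricter choice of relatives by protein similarity was not run. Signal near the floor limits what can be seen: 24.7% of all probe sets stayed there on all 6 arrays.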
